A study of Homo sapiens with 18 samples.

Results

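SW620 cells were compared with uninduced HT-29 iZEB1 cells in vehicle, a contrast of 2 human colorectal cancer lines that used 6 of the 18 RNA sequencing libraries in the study. The members are the 3 SW620 libraries in DMSO and the 3 HT-29 iZEB1 libraries in DMSO without doxycycline (DOX), picked by their labels. HT-29 is an established epithelial line from a primary colorectal adenocarcinoma, and the iZEB1 derivative carries a DOX-inducible system for ZEB1, an EMT transcription factor. Here that system received 0 µg/ml DOX. SW620 is an established line from a lymph node metastasis of a colorectal adenocarcinoma, carries no such system in the labels, and was likewise kept in DMSO. The line and the engineered system therefore cannot be told apart in this contrast, and whether HT-29 iZEB1 is a single clone is not given in the sources used here. The study's other libraries hold DOX-induced HT-29 iZEB1 cells and both lines treated for 24 h with 10 µM RepSox, an inhibitor of the TGF-beta type I receptor. The 3 SW620 and 3 uninduced HT-29 iZEB1 libraries in RepSox served as a repeat of the line contrast in libraries that the DMSO contrast does not use.

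Epithelial cells hold together through E-cadherin, desmosomes and tight junctions, and during an epithelial-mesenchymal transition (EMT) repressors of the ZEB, SNAI and TWIST families lower these genes while vimentin and matrix genes rise. Colorectal cancer lines also differ in how much of the colon's own differentiation they keep: absorptive cells with a brush border, mucus-secreting goblet cells, hormone-making enteroendocrine cells, and the WNT-dependent stem cells of the crypt. Most carry WNT signalling that is switched on by mutation, and many carry mutations that drive the ERK pathway.

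The libraries were of even depth, with 36511596 to 36741752 counts in HT-29 iZEB1 and 37198249 to 37377047 in SW620. More genes had at least 1 count in each SW620 library (25216 to 25322) than in each HT-29 iZEB1 library (23256 to 23580). Of 60642 genes in the count table, 17631 passed the filter on low counts. Levels are given as CPM, counts per 1e6 after TMM scaling, in replicate order, and ± is the SD of 3 libraries. Differences are on the log2 scale of the edgeR fit, SW620 minus HT-29 iZEB1. A gene is called when the adjusted p of edgeR's quasi-likelihood test (Benjamini-Hochberg over all genes tested) is below 0.05. Up to 6 called members of each list are named by the size of their difference, and other called members were named after their values were seen. The labels do not say that replicates were separate cultures, so the p-values reflect no more than the spread among these 6 libraries. In bulk RNA, fewer cells that express a gene and less RNA per cell cannot be told apart.

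The lines differed across most of the transcriptome. Of the 17631 genes tested, 14050 were called (79.7%), 7373 higher in SW620 (41.8%) and 6677 lower (37.9%). The first principal component, which separated the lines, held 98.1% of the variance. The biological coefficient of variation within a line was 6.15%, and at that spread differences well under 2-fold were called. A stricter count asked for a call and at least a 4-fold difference. It held 3891 genes (22.1%), 2234 higher in SW620 (12.7%) and 1657 lower (9.4%). For every list below, the background is these shares at 4-fold, and 41.8% higher and 37.9% lower for calls of any size. A list whose counts lie near these shares was called no more often than genes in general. The libraries of the lines did not overlap for 14323 genes (81.2%). The median difference over all genes tested was 0.06.

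The contrast was much the same between the RepSox libraries. There 14259 of 17528 genes were called (81.3%), 7397 higher in SW620 (42.2%) and 6862 lower (39.1%). At least 4-fold differences were called for 3897 genes (22.2%), 2281 higher (13%) and 1616 lower (9.22%), and the lines did not overlap for 14408 (82.2%). Among the 17097 genes tested in both, 6453 were called higher in SW620 in both settings, which is 89.7% of the DMSO list and 89.5% of the RepSox list. For genes lower in SW620, 5938 were shared, 91.1% of the DMSO list and 88% of the RepSox list. At 4-fold or more, 1908 genes were higher in both (90.5% and 88.5%) and 1381 were lower in both (88.8% and 90%). Calls in opposite directions numbered 176, and none of them was 4-fold in both settings.

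**Figure D1:**
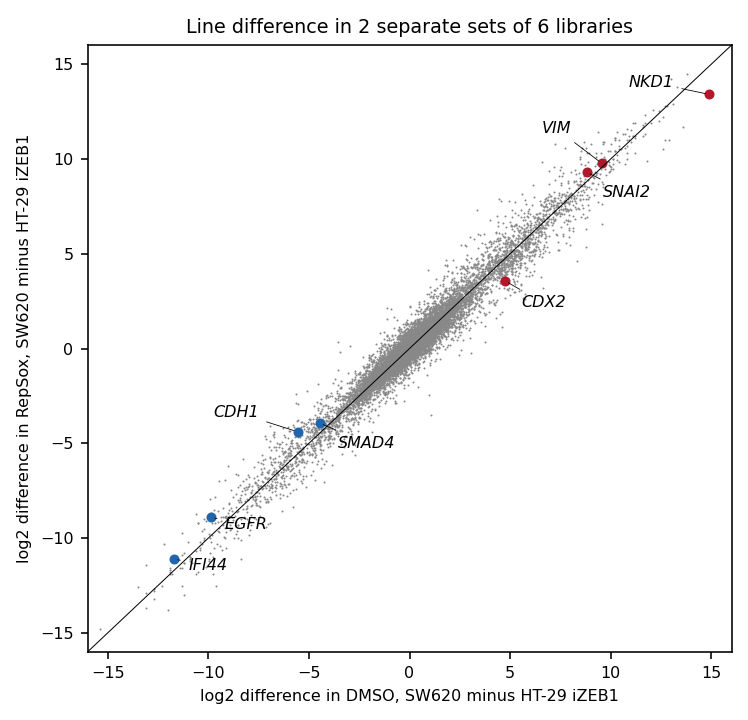
Difference between SW620 and HT-29 iZEB1 for each of the 17097 genes tested in both settings, in DMSO (x axis) and in RepSox (y axis), as log2 differences. Genes at 0 counts in one line are drawn at their lower bound. The points lie along the diagonal, with VIM and NKD1 on the upper right and CDH1 and IFI44 on the lower left.

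E-cadherin, the adhesion protein of epithelial cells encoded by CDH1 (chr16:68737225-68835548, plus strand in GRCh38), was low in SW620. The 3 HT-29 iZEB1 libraries held 469, 459 and 495 CPM and the SW620 libraries 11.3, 7.92 and 11 CPM, with no overlap. CDH1 was 47-fold lower in SW620 (log2 difference −5.56, SE 0.095, adjusted p = 3.17e-19). Vimentin, the intermediate filament of mesenchymal cells (VIM, chr10:17228259-17237593, plus strand), went the other way, with 0.343, 0.171 and 0.458 CPM in HT-29 iZEB1 and 242, 251 and 248 CPM in SW620. VIM was 756-fold higher in SW620 (log2 difference 9.56, SE 0.117, adjusted p = 5.16e-21). Both differences recurred in RepSox, at −4.39 for CDH1 and 9.76 for VIM.

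SW620 kept several general epithelial genes, which bears on its label as an epithelial line. EPCAM, an epithelial adhesion molecule, stood at 328, 320.0 and 332 CPM in SW620 against 672, 680.0 and 631 CPM in HT-29 iZEB1, a 2.02-fold difference (log2 difference −1.02, SE 0.0481, adjusted p = 7.15e-13). The simple keratin KRT18 stood at 1427 ± 30.8 CPM in SW620 and 1767 ± 170.0 CPM in HT-29 iZEB1 (log2 difference −0.31, SE 0.057, adjusted p = 8e-05). Its partner KRT8 was lower in SW620 by a factor of 1.5 (log2 difference −0.58, SE 0.0496, adjusted p = 4.03e-09). KRT19 was higher in SW620 by a factor of 1.35 (log2 difference 0.43, SE 0.0574, adjusted p = 1.87e-06). So of the 8 markers set for epithelial cells, EPCAM, KRT8, KRT18 and KRT19 differed by at most 2.02-fold between the lines. The claudins CLDN3 (−3.34), CLDN4 (−1.78) and CLDN7 (−5.66) were lower in SW620, as was CDH1.

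**Figure D2:**
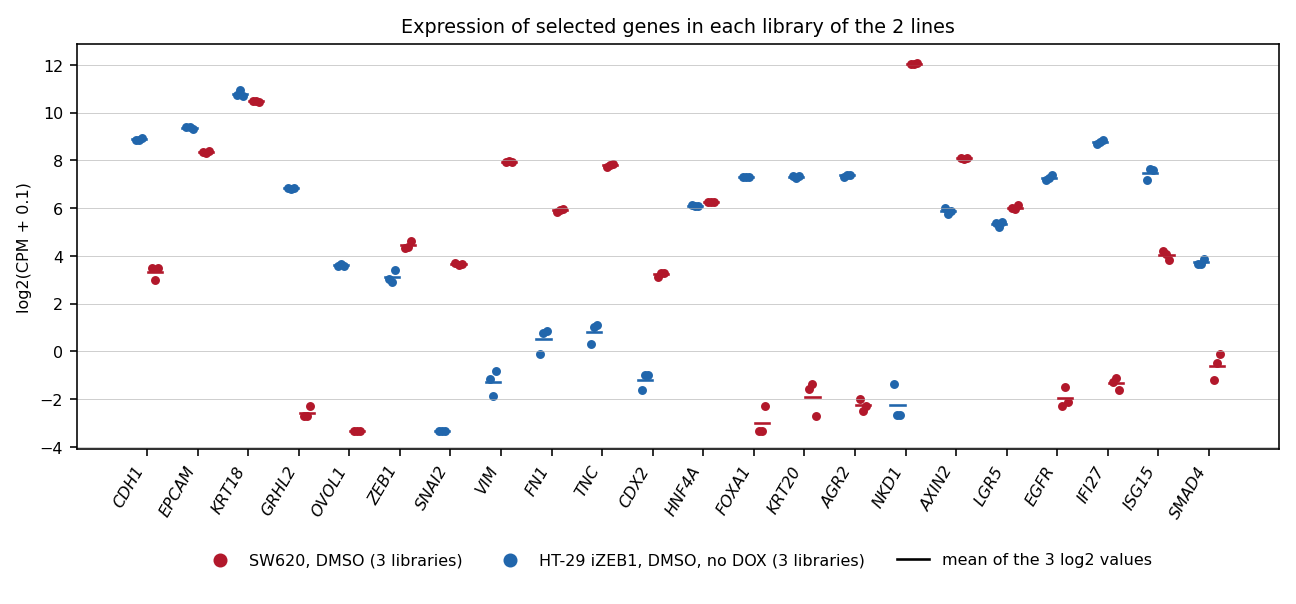
Level of selected genes in each of the 3 HT-29 iZEB1 and 3 SW620 libraries in DMSO, as log2 of CPM plus 0.1 on the y axis, with the mean of the 3 log2 values as a bar. CDH1, GRHL2 and EGFR sit far lower in SW620, VIM, NKD1 and TNC far higher, and EPCAM, KRT18 and HNF4A lie close together.

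In the list of epithelial adhesion and junction genes, 38 of 44 members were lower in SW620 and 4 higher, with 22 at least 4-fold lower and 0 at least 4-fold higher. The list's median difference was −1.96, against 0.06 over all genes. The apical trafficking gene MAL2 stood at 0.12 ± 0.104 CPM in SW620 and 1051 ± 46.3 CPM in HT-29 iZEB1, an 8520-fold difference. TMEM30B, a subunit of lipid flippases, had 0 counts in all 3 SW620 libraries and 66.2 ± 1.56 CPM in HT-29 iZEB1, so it was at least 2570-fold lower. RAB25, a small GTPase of apical recycling, was 718-fold lower, with 0.283, 0.104 and 0.205 CPM in SW620 and 145, 140.0 and 147 CPM in HT-29 iZEB1. Also lower were the pore-forming claudin CLDN2 (−10.81) and the membrane protease PRSS8 (−10.09). The exceptions were CLDN1, a tight junction claudin (1.58), the desmosomal plakin DSP (0.77), CLDN15 (0.59) and LAD1 (0.16), which were higher in SW620. The LAD1 call was lost without HT-29 iZEB1 replicate 3 (adjusted p = 0.0853) or SW620 replicate 2 (0.054).

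The promoters of 3 strongly lowered members are shown because they hold the E-box CACCTG, the hexamer that ZEB and SNAI repressors bind. They were chosen after their values were seen, and AP1M2, the mu subunit of an epithelial sorting adaptor, was 447-fold lower in SW620. Each sequence runs 5′ to 3′ on the gene's strand from 250 bases before to 50 bases after the RefSeq start, in GRCh38.p14, and capitals mark the E-boxes on either strand (CACCTG or CAGGTG). AP1M2 lies at chr19:10587263-10587562 (minus strand) with 3 E-boxes, RAB25 at chr1:156060910-156061209 (plus strand) with 2, and TMEM30B at chr14:61281289-61281588 (minus strand) with 4.
AP1M2: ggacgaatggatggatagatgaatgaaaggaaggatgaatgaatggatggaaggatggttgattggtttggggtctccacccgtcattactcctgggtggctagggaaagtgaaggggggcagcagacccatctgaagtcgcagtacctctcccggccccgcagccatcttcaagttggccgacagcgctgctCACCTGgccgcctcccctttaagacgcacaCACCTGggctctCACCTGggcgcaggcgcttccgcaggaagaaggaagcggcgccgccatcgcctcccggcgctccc
RAB25: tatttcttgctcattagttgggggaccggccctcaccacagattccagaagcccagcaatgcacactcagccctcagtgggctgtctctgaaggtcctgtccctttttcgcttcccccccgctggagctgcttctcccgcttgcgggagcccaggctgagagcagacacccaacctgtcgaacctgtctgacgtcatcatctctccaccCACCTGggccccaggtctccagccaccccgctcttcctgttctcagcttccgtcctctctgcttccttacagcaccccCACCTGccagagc
TMEM30B: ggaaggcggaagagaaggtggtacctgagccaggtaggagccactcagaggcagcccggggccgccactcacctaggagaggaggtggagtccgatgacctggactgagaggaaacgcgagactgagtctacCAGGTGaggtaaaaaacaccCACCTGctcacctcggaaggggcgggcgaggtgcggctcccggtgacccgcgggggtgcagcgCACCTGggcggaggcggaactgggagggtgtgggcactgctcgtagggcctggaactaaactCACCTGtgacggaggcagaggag
RefSeq promoters of 300 bases were matched for 11383 of the 17631 genes tested, and 19.4% of those held an E-box. Among genes at least 4-fold lower in SW620 the share was 24.7%, and among genes at least 4-fold higher it was 21.8%. In the adhesion and junction list 16 of 28 matched promoters held it (57.1%). Among the epithelial transcription factors and splicing regulators described next, 3 of 11 did (27.3%). Within the adhesion and junction list the 16 members with an E-box had a median difference of −1.61 and the 12 without −1.99. A match gives the letters in the window and not a bound site.

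Regulators of the epithelial state were lower in SW620 too. Of 18 epithelial transcription factors and splicing regulators, 16 were lower in SW620 and 1 higher, 11 and 1 of them at least 4-fold, with a median of −2.47. GRHL2, which sustains epithelial junction genes, had 115, 112 and 115 CPM in HT-29 iZEB1 and 0.0514, 0.0518 and 0.102 CPM in SW620, a 1580-fold difference (log2 difference −10.63, SE 0.135, adjusted p = 7.24e-21). OVOL1, a repressor of EMT genes, had 0 counts in SW620 and 12.1 ± 0.391 CPM in HT-29 iZEB1. The goblet cell factor SPDEF (−7.06) and the ETS factor EHF (−3.06) were also lower. GRHL3, a paralog of GRHL2, had 1 count in all in SW620 and 893 in HT-29 iZEB1, a ratio of 991 with a counting interval of 177 to 39200 (95%, for counting error alone). TFCP2L1, a grainyhead-related factor, was higher in SW620, at 39.4 ± 0.471 CPM against 0.333 ± 0.168 CPM. The splicing regulator ESRP1 was 4.62-fold lower in SW620 but remained at 74, 71 and 75.5 CPM, and its paralog ESRP2 differed by 1.29-fold.

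Keratins did not move together. Of 10 tested, 6 were higher in SW620 and 3 lower, with a median of 0.78 (2.25 in RepSox). KRT20, the keratin of differentiated colon epithelium, was 835-fold lower in SW620 (0.231, 0.285 and 0.0511 CPM against 165, 155 and 161 CPM). KRT7, a keratin of other ducts and glands, was higher (5.26 ± 0.268 CPM in SW620 and 0.875 ± 0.0339 CPM in HT-29 iZEB1). KRT80 (1.25) and KRT15 (1.03) were higher too. KRT81 read 34 ± 3.62 CPM in SW620 and 0.228 ± 0.13 CPM in HT-29 iZEB1, but it has near-identical hair keratin copies, so its reads may be shared.

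Among EMT transcription factors, 6 of 8 tested members were higher in SW620 and SNAI3 was lower, with a median of 3.08. A member could pass the filter through the line where it is high, so those tested do not stand for the whole list. Without a filter on low counts the median over 11 members was 2.55, with 7 higher and 1 lower. SNAI2 (Slug), a repressor of CDH1, had 0 counts in every HT-29 iZEB1 library and 13.1, 12.3 and 12.7 CPM in SW620, at least 444-fold higher. SNAI1 (Snail) stood at 1.69, 1.96 and 2.12 CPM in HT-29 iZEB1 and 11.4, 12.1 and 10.5 CPM in SW620, 5.9-fold higher (log2 difference 2.56, SE 0.129, adjusted p = 1.81e-12). ETS1, an ETS family factor, was 12.1-fold higher. ZEB1 itself differed less than these. Its libraries held 7.97, 7.42 and 10.5 CPM in HT-29 iZEB1 and 19.9, 20.6 and 24.8 CPM in SW620, without overlap, a 2.52-fold difference (log2 difference 1.33, SE 0.12, adjusted p = 8.65e-09). The counts do not separate the inducible copy from the endogenous gene, and its part in the HT-29 iZEB1 level was not tested. TWIST1 had 0 counts in both lines and ZEB2 had 4 counts in all in SW620 and 13 in HT-29 iZEB1, under the filter.

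Of 23 tested mesenchymal genes, 17 were higher in SW620 and 4 lower, 12 and 2 of them at least 4-fold, with a median of 2.46 (3.78 in RepSox). Without a filter on low counts the median over 26 members was 2.15. The summed level of the tested members differed little, at 4141 to 4197 CPM in SW620 and 3807 to 3949 CPM in HT-29 iZEB1. The matrix proteins tenascin C and fibronectin were among the higher members. TNC stood at 211, 227 and 231 CPM in SW620 and 1.14, 1.93 and 2.03 CPM in HT-29 iZEB1. FN1 stood at 56.8, 61.2 and 62.1 CPM in SW620 and 0.829, 1.59 and 1.72 CPM in HT-29 iZEB1, and neither gene overlapped between the lines. MYL9, a myosin light chain of contractile cells (6.20), and CAV1, the coat protein of caveolae (4.79), were also higher. The list was not uniform: NT5E, the ecto-nucleotidase CD73 of mesenchymal stromal cells, was 1160-fold lower in SW620 (0.172 ± 0.0296 CPM in SW620 and 203 ± 4.04 CPM in HT-29 iZEB1). CDH2, the N-cadherin gene, had 0 counts in both lines.

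The transcription factors that give the intestine its identity split between the lines, with 7 of 17 tested higher in SW620 and 9 lower (4 and 6 at least 4-fold). CDX2, the caudal factor that specifies intestine, was nearly absent from HT-29 iZEB1. Its libraries held 0.229, 0.398 and 0.4 CPM there and 8.64, 9.63 and 9.54 CPM in SW620, a 26.8-fold difference (log2 difference 4.75, SE 0.19, adjusted p = 5.79e-14). FOXA2, a pioneer factor of endoderm (69 ± 3.68 CPM in SW620 and 2.13 ± 0.253 CPM in HT-29 iZEB1), was likewise higher in SW620. In the other direction FOXA1, the related pioneer factor, had 0, 0 and 0.102 CPM in SW620 and 159, 160.0 and 156 CPM in HT-29 iZEB1. The nuclear receptor NR5A2 (−7.81) and GATA6 (−5.86) were lower as well. HNF4A, the master nuclear receptor of enterocytes, was nearly level, at 77.3, 76 and 75.7 CPM in SW620 and 70.4, 68.4 and 68.2 CPM in HT-29 iZEB1. Its small difference was called in DMSO (log2 difference 0.15, SE 0.0547, adjusted p = 0.0214) and was called in the opposite direction in RepSox (−0.31). The DMSO call was lost without a filter on low counts (adjusted p = 0.0634), and without HT-29 iZEB1 replicate 2 (adjusted p = 0.073), HT-29 iZEB1 replicate 3 (0.0638) or SW620 replicate 1 (0.0564).

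**Figure D3:**
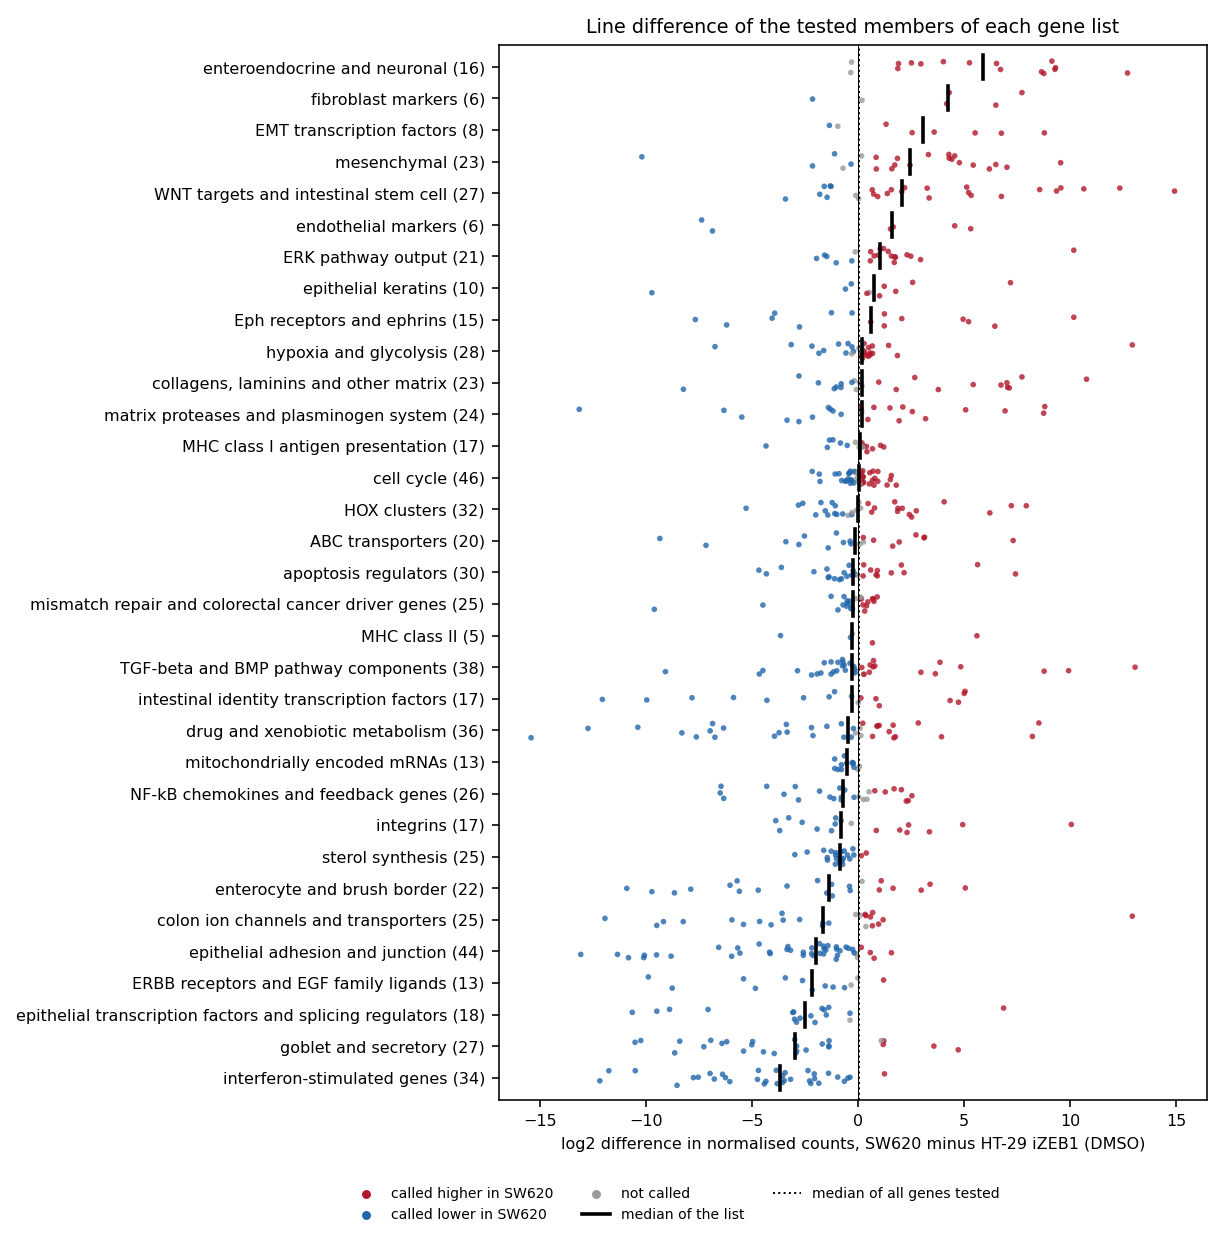
Line difference of every tested member of each gene list, for lists with at least 5 tested, as log2 of SW620 over HT-29 iZEB1 in DMSO, with 1 point per gene, the list's median as a bar and the number tested in brackets. Genes at 0 counts in one line are drawn at their lower bound, lists are sorted by median, and interferon-stimulated and goblet genes lie at the low end while enteroendocrine and EMT genes lie at the high end.

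Genes of differentiated colon cells were mostly lower in SW620. In the enterocyte and brush border list 15 of 22 tested members were lower and 6 higher (median −1.35). LGALS4, a galectin of the colon surface, stood at 0.257, 0.207 and 0.281 CPM in SW620 and 491, 485 and 453 CPM in HT-29 iZEB1, a 1890-fold difference. The tetraspanin TSPAN8 (−8.64), the carbonic anhydrase CA12 (−7.87), PHGR1 (−5.69) and the brush border protocadherin CDHR5 (−5.58) were lower as well. CDHR2, the partner of CDHR5 in linking microvilli, was higher (5.07), as was the actin bundler ESPN (3.41).

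Goblet and secretory genes were likewise mostly lower: 22 of 27 tested members were lower in SW620, 18 of them at least 4-fold, and 4 were higher (median −2.97, or −4.48 in RepSox). AGR2, a disulphide isomerase needed to make mucin, had 0.154, 0.0777 and 0.102 CPM in SW620 and 160.0, 168 and 170.0 CPM in HT-29 iZEB1. LYZ, the lysozyme of Paneth cells, stood at 3.16, 3.76 and 3.32 CPM in SW620 and 1320, 1330 and 1400 CPM in HT-29 iZEB1, a 396-fold difference. The iron-binding defence protein LCN2 (−10.23), the trypsin inhibitor SPINK1 (−8.39) and the kallikrein KLK10 (−4.96) were lower too. MUC20 read lower (−5.00) but has a near-identical copy. TFF3, a trefoil peptide of goblet cells, was higher in SW620 (3.59).

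Enteroendocrine and neuronal genes went the opposite way, with 14 of 16 tested members higher in SW620, 12 of them at least 4-fold, and 0 lower. Their median was 6.63, or 5.90 with genes at 0 in HT-29 iZEB1 set to their bound, and 16 further members did not pass the filter. A member could pass through the line where it is high, so those tested do not stand for the whole list. Without a filter the median over 25 members was 2.52 and 3 were lower, and with all 18 libraries in the fit 1 of 17 was lower. In RepSox 14 of 17 were higher and 1 lower (median 4.13). GNG4, a G protein gamma subunit of brain, had 0 counts in every HT-29 iZEB1 library and 190.0, 191 and 195 CPM in SW620, at least 6720-fold higher. The neuronal genes CRMP1 (18.2 ± 0.835 CPM) and ELAVL2 (17.9 ± 1.68 CPM) also had 0 counts in HT-29 iZEB1. PAX6, a factor of endocrine and eye development, stood at 18, 18.6 and 17.6 CPM in SW620 and 0, 0.0569 and 0.0572 CPM in HT-29 iZEB1. CHGB, a granin of hormone granules, had 853 counts in SW620 and 1 in HT-29 iZEB1, a ratio of 769 with a counting interval of 138 to 30400.

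Genes for ion and fluid transport were lower in SW620 for 14 of 25 tested members, 11 at least 4-fold, and higher for 8 (median −1.65). Without a filter on low counts the median over 31 members was −0.107, and in RepSox, where 15 of 24 were lower and 6 higher, it was −0.999. CFTR, the chloride channel of secreting colon cells, had 0 counts in all 3 SW620 libraries and 95.7, 94.8 and 108 CPM in HT-29 iZEB1, at least 3870-fold lower. The glucose cotransporter SLC5A1 and the bicarbonate cotransporter SLC4A4 also had 0 counts in SW620, against 18.4 ± 1.56 CPM and 7.71 ± 0.687 CPM. The water channel AQP5 (−9.16) and the potassium channel KCNQ1 (−5.39) were lower. The high-affinity glucose transporter SLC2A3 was the reverse. It held 99.3, 101 and 104 CPM in SW620 and 1 count in all in HT-29 iZEB1, a ratio of 10700 with a counting interval of 1920 to 422000.

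WNT targets and intestinal stem cell genes were higher in SW620 for 19 of 27 members, 14 at least 4-fold, and lower for 6 (median 2.07). The WNT feedback inhibitors stood out in size. NKD1, which binds Dishevelled (chr16:50548330-50649249, plus strand), had 0.286, 0.0569 and 0.0572 CPM in HT-29 iZEB1 and 4210, 4230 and 4370 CPM in SW620, a 31200-fold difference (log2 difference 14.93, SE 0.13, adjusted p = 1.12e-22). NOTUM, an enzyme that removes the lipid from WNT proteins, had 0.171, 0.199 and 0.0858 CPM in HT-29 iZEB1 and 861, 836 and 743 CPM in SW620, 5230-fold higher. APCDD1, a membrane inhibitor of WNT, had 0 counts in HT-29 iZEB1 and 45.8 ± 1.36 CPM in SW620. PROX1, a WNT target factor of colon adenomas (9.37), and the WNT antagonist SFRP5 (8.57) were also higher. The receptor TNFRSF19 had 17 ± 1.89 CPM in SW620 and 2 counts in all in HT-29 iZEB1, a ratio of 896 with a counting interval of 248 to 7400.

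Other WNT targets, chosen after their values were seen, differed less or in the other direction. AXIN2, the standard WNT feedback gene, stood at 63.5, 54.7 and 59.3 CPM in HT-29 iZEB1 and 278, 270.0 and 272 CPM in SW620, 4.62-fold higher in SW620. The stem cell receptor LGR5 differed by 1.6-fold (41.6, 37.4 and 42.4 CPM in HT-29 iZEB1 and 63.4, 62.2 and 69.2 CPM in SW620). CD44, a hyaluronan receptor that is also a WNT target, was 10.6-fold lower in SW620 (22.2 ± 0.979 CPM in SW620 and 237 ± 15.5 CPM in HT-29 iZEB1). SOX9 (−0.09) and ZNRF3 (0.04) were not called.

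Eph receptors, which sort cells along the crypt, split by member, with 8 of 15 higher in SW620 and 7 lower (5 at least 4-fold each way). Over all genes tested 41.8% were higher and 37.9% lower, 12.7% and 9.4% at least 4-fold. EPHB2, a WNT target of the crypt base, had 145, 146 and 146 CPM in SW620 and 3.6, 4.12 and 3.98 CPM in HT-29 iZEB1. EPHA4 was higher as well (37 ± 2.7 CPM against 0.0286 ± 0.0495 CPM). The receptors EPHA1 (−6.18) and EPHB4 (−3.92) and the ligands EFNA5 (−7.66) and EFNA4 (−4.04) were lower.

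EGFR, the receptor for EGF, was nearly absent from SW620. Its SW620 libraries held 0.103, 0.259 and 0.128 CPM and its HT-29 iZEB1 libraries 145, 152 and 170.0 CPM, a 938-fold difference (log2 difference −9.87, SE 0.143, adjusted p = 3.86e-20). Of 13 tested ERBB receptors and ligands 10 were lower in SW620, 7 of them at least 4-fold, and 1 was higher (median −2.15, or −1.12 in RepSox). ERBB2 (HER2) was 6.09-fold lower at 39.4 ± 1.57 CPM in SW620 and 239.6 ± 7.81 CPM in HT-29 iZEB1. Ligands of these receptors were lower as well: amphiregulin AREG (−3.42), epiregulin EREG (−2.15) and betacellulin BTC (−4.83). LRIG3, a regulator of these receptors, had 0 counts in SW620, and HBEGF (0.00) was not called.

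Genes known as outputs of ERK signalling were higher in SW620 for 15 of 21 members and lower for 5, 4 and 0 of them at least 4-fold (median 1.05). FOSL1, an AP-1 subunit that ERK stabilises and induces, stood at 142, 150.0 and 130.0 CPM in SW620 and 18.3, 18.6 and 17.4 CPM in HT-29 iZEB1. ETV1, an ETS factor (2.50), and the ERK phosphatases DUSP5 (2.32) and DUSP7 (1.78) were higher. FOS was lower (−1.94). DUSP6, outside the naming rule, differed by 1.71-fold (0.77), and ETV4 (−0.12) was not called.

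TGF-beta and BMP genes differed unevenly, with 14 of 38 higher in SW620 and 22 lower, 7 and 5 at least 4-fold (median −0.28). The TGF-beta receptors were near level. TGFBR1, the kinase that RepSox inhibits, stood at 21 ± 1.5 CPM in SW620 and 21.9 ± 2.76 CPM in HT-29 iZEB1 and was not called (log2 difference −0.06, SE 0.0927, adjusted p = 0.566). TGFBR2 differed by 1.11-fold (log2 difference −0.15, SE 0.0562, adjusted p = 0.0224). That call was lost on library totals alone (adjusted p = 0.706) and without HT-29 iZEB1 replicate 2 (0.0557), SW620 replicate 1 (0.0598) or SW620 replicate 2 (0.156). SMAD4, the common partner of the receptor SMADs and a colorectal tumour suppressor, was low in SW620 (0.334, 0.622 and 0.818 CPM against 12.5, 12.7 and 14.4 CPM), a 22.2-fold difference (log2 difference −4.47, SE 0.184, adjusted p = 8.37e-14).

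Ligands and antagonists of the family differed by line. INHBB, the activin B subunit, had 201, 185 and 193 CPM in SW620 and 2 counts in all in HT-29 iZEB1, a ratio of 10100 with a counting interval of 2810 to 83800. BMP7 was higher in SW620 (115 ± 1.71 CPM against 0.114 ± 0.0573 CPM). BMP2 was lower, with 2 counts in all in SW620 and 1158 in HT-29 iZEB1, a ratio of 642 with a counting interval of 177 to 5310. BAMBI, a decoy receptor that is also a WNT target, was 441-fold higher in SW620. ENG, a coreceptor, was lower (−2.84).

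Matrix genes went both ways: 11 of 23 tested were higher in SW620 and 8 lower, 9 and 2 at least 4-fold. Their median of 0.20 over 23 members moved when a library was left out and the filter passed more members. Without HT-29 iZEB1 replicate 1, 2 and 3 it was 0.594 (26 tested), 0.918 (25) and 0.982 (25). It was 0.103 and 0.332 without SW620 replicate 2 and 3 (25 tested each). Without a filter on low counts it was 1.3, on library totals alone 0.32, and in RepSox, where 14 of 24 were higher and 8 lower, 1.47. Besides TNC and FN1, SW620 held more of the basement membrane linker NID1 (50.2 ± 2.36 CPM against 0 counts), FBLN1 (7.74), COL7A1 (7.14) and COL6A1 (6.75). COL17A1, the hemidesmosomal collagen of epithelia, was lower in SW620 (0.437 ± 0.168 CPM in SW620 and 131 ± 1.56 CPM in HT-29 iZEB1).

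Integrin subunits, the receptors for that matrix, were lower in SW620 for 9 of 17 and higher for 7. ITGA5, the fibronectin receptor subunit, had 0 counts in HT-29 iZEB1 and 30.6, 31.7 and 29.6 CPM in SW620, at least 1070-fold higher. ITGA7, a laminin receptor subunit of muscle, was also higher (4.95). The epithelial subunits ITGB6 (−3.68) and ITGA3 (−3.25), and ITGAV (−2.62) and ITGA1 (−3.87), were lower.

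Proteases and their inhibitors showed 12 of 24 higher and 10 lower, against 41.8% and 37.9% of all genes tested. The epithelial serine protease TMPRSS4 had 1 count in all in SW620 and 107 ± 1.76 CPM in HT-29 iZEB1, a ratio of 12500 with a counting interval of 2250 to 495000. The serpin SERPINB5 (−6.31) and the matrilysin MMP7, a WNT target made by epithelium (−5.47), were lower. The plasminogen activator PLAU (34.6 ± 0.883 CPM in SW620 and 1.02 ± 0.268 CPM in HT-29 iZEB1), the inhibitor TIMP3 (12.8 ± 1.71 CPM against 0 counts) and ADAMTS15 (8.76) were higher.

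HOX genes, which record position along the body axis, were called in both directions. Of 32 tested, 14 were higher in SW620 and 13 lower, near the 41.8% and 37.9% of all genes tested. Their median was −0.01, but 0.118 on library totals alone, 0.0454 with all 18 libraries in the fit, and 0.0187 and 0.0261 without HT-29 iZEB1 replicate 3 and SW620 replicate 1. HOXA13, the hindgut gene of the A cluster, was 38.5-fold lower in SW620 (2.8, 2.05 and 1.64 CPM against 86.4, 79.8 and 83.7 CPM). HOXB9 was lower too (−2.80). HOXC10 (44.9 ± 1.2 CPM against 0.295 ± 0.0719 CPM) and HOXC11 (2.76) were higher, and so was HOXD9 (10.2 ± 0.328 CPM against 0.038 ± 0.0329 CPM).

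Interferon-stimulated genes were almost uniformly lower in SW620. Of 34 members, 33 were lower in SW620 and 1 higher, 27 and 0 of them at least 4-fold (median −3.68). IFI27, a mitochondrial interferon-induced protein, had 0.309, 0.363 and 0.23 CPM in SW620 and 407, 443 and 459 CPM in HT-29 iZEB1, a 1440-fold difference. IFI44 had 0 counts in SW620 and 67.7, 89.6 and 106 CPM in HT-29 iZEB1. IFIT1, which binds viral RNA that lacks a host cap, stood at 1.57, 0.829 and 1.28 CPM in SW620 and 106, 132 and 163 CPM in HT-29 iZEB1. IFI44L had 1 count in all in SW620 (54.7 ± 19.8 CPM in HT-29 iZEB1), a ratio of 6380 with a counting interval of 1140 to 252000. IFITM1, a membrane restriction factor (−8.52), and ISG15, a ubiquitin-like modifier (−3.46), were lower, while IFITM2 was higher (1.26).

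The level of this list also varied between the HT-29 iZEB1 libraries. Their mean deviation from the line's own mean was −0.21, −0.01 and 0.22 on the scale of log2(CPM + 1), against at most 0.01 in SW620. The list's summed level ranged from 3676 to 4918 CPM in HT-29 iZEB1 and from 588.7 to 616 CPM in SW620, so this spread is small beside the gap between the lines. In RepSox 32 of 34 members were lower in SW620 and 1 higher (median −3.31).

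Promoters of 3 members are shown because they carry the interferon response element, taken here as 2 GAAA blocks with 2 bases of any kind between them, the tandem that interferon regulatory factors recognise. This motif and these genes were picked after their values were seen. The windows, build and source are as for the promoters above, and capitals mark matches on either strand, which may overlap. IFI27 lies at chr14:94110486-94110785 (plus strand), IFI44L at chr1:78620198-78620497 (plus strand) and ISG15 at chr1:1013247-1013546 (plus strand), each with 2 matches.
IFI27: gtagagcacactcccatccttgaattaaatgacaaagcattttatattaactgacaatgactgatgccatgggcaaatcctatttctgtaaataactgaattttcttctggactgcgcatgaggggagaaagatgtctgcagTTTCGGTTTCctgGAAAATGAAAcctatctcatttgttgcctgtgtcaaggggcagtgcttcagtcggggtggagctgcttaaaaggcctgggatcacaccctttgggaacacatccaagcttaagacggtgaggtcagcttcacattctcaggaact
IFI44L: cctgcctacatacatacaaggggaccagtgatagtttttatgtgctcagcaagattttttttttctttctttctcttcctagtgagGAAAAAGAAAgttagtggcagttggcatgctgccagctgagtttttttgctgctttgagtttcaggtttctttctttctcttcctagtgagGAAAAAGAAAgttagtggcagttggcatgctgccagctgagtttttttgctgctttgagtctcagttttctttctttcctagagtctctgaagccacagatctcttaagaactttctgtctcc
ISG15: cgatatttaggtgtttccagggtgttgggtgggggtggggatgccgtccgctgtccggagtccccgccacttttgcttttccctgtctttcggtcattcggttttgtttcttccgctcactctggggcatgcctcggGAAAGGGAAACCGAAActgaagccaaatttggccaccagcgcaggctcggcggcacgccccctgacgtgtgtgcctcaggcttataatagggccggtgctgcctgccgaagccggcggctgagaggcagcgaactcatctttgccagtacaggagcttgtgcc
Across all matched promoters 2.78% held this motif, against 6.39% of genes at least 4-fold lower in SW620 and 1.77% of genes at least 4-fold higher. In the interferon list 16 of 25 matched promoters held it (64%). Their median difference was −4.12, and that of the 9 without was −3.55. The 2 other motifs searched, TGANTCA (AP-1) and CAAAGTCCA (HNF4A), were in 7.71% and 0.203% of promoters of genes at least 4-fold lower, 6.48% and 0.617% of those at least 4-fold higher, and 4.72% and 0.316% of all.

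Other immune genes were less uniform. Of 26 NF-kB chemokines and feedback genes tested, 15 were lower in SW620 and 7 higher (median −0.69). In RepSox 12 were lower and 11 higher (median −0.25). The chemokine CXCL16 (−3.48), the cytokine IL18 (−2.95) and TNFAIP2 (−2.79) were lower, and the apoptosis inhibitor BIRC3 (2.05) was higher. In MHC class I presentation 7 of 17 were higher and 6 lower, with none at least 4-fold higher and ERAP2, a peptide trimming enzyme, 4-fold lower or more (4.37 ± 0.106 CPM in SW620 and 87.8 ± 9.1 CPM in HT-29 iZEB1). B2M, the invariant light chain, was 2.71-fold lower in SW620 (292, 294 and 303 CPM against 765, 780.0 and 861 CPM). HLA-C (1.07) and HLA-E (−1.17) went in opposite directions, but reads from polymorphic HLA genes with near-identical copies may be shared or lost.

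Drug-metabolising enzymes were lower in SW620 for 20 of 36 tested members and higher for 13, 15 and 4 at least 4-fold (median −0.48, or −1.52 without a filter on low counts). ALDH1A1, a retinaldehyde dehydrogenase used as a stem cell marker, had 1300, 1200 and 1270 CPM in HT-29 iZEB1 and 3 counts in all in SW620, a ratio of 48900 with a counting interval of 16700 to 237000. The aldo-keto reductases differed in opposite directions. AKR1B10, which has a near-identical copy, stood at 0.0342 ± 0.0296 CPM in SW620 and 49.96 ± 3.4 CPM in HT-29 iZEB1, and AKR1B1 at 75.3 ± 2.7 CPM in SW620 and 0.2 ± 0.102 CPM in HT-29 iZEB1. UGT1A10 had 0 counts in SW620 and 173 ± 6.41 CPM in HT-29 iZEB1, but UGT1A genes share exons, so the level of a single one is uncertain. SULT1C2, a sulphotransferase, was higher in SW620 (8.23).

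ABC transporters, among them drug efflux pumps, also differed by member, with 8 of 20 higher in SW620 and 10 lower. Over all genes tested the shares were 41.8% and 37.9%. ABCG2, the breast cancer resistance protein, had 0.129, 0.0518 and 0.256 CPM in SW620 and 95.9, 93.5 and 98.7 CPM in HT-29 iZEB1, 644-fold lower. ABCC2, the canalicular pump MRP2, had 29.5, 28.6 and 30.2 CPM in SW620 and 0.171, 0.37 and 0 CPM in HT-29 iZEB1, 160.0-fold higher. ABCC3 (−2.78) and the cholesterol exporter ABCA1 (−7.16) were lower, and the surfactant lipid carrier ABCA3 (3.14) was higher. MGMT, which repairs alkylated guanine, had 4 counts in all in SW620 and 3056 in HT-29 iZEB1 (log2 difference −9.59, SE 0.22, adjusted p = 1.48e-17).

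Sterol and fatty acid synthesis genes were lower in SW620 for 23 of 25 members and higher for 2, by modest amounts (median −0.84, 2 at least 4-fold lower). Squalene epoxidase SQLE stood at 73.8, 73 and 80.1 CPM in SW620 and 605, 547 and 624 CPM in HT-29 iZEB1, 7.82-fold lower. INSIG1, the sterol-sensing brake on SREBP (−2.39), and the early synthesis enzyme HMGCS1 (−1.61) followed. FASN (0.40) and EBP (0.17) were the 2 higher members. The EBP call was lost with RLE size factors (adjusted p = 0.0656), without a filter on low counts (0.0874) and in DESeq2 (0.0771). It was also lost without HT-29 iZEB1 replicate 1 (adjusted p = 0.0843) or 2 (0.194), or without SW620 replicate 1 (0.132) or 2 (0.0709).

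Hypoxia and glycolysis genes gave 15 of 28 higher and 10 lower. Their median was 0.22, against 0.128 without HT-29 iZEB1 replicate 2 and 0.339 on library totals alone. In RepSox 11 were higher and 12 lower (median 0.00123). EPAS1, the hypoxia factor HIF-2 alpha, was 106-fold lower in SW620 (0.463, 0.337 and 0.256 CPM against 39.1, 37.1 and 37 CPM), while HIF1A differed by 1.15-fold, a call lost on library totals alone (adjusted p = 0.223). The stress gene NDRG1 (−3.14) and VEGFA, the vascular growth factor (−1.61), were lower. Mitochondrially encoded mRNAs made up 3.97% to 4.89% of counts in HT-29 iZEB1 and 3.77% to 4.17% in SW620, and 11 of 13 were called lower in SW620 (median −0.52), or 7 on library totals alone or with all 18 libraries in the fit. In RepSox these mRNAs made up 2.3%, 3.66% and 3.86% of counts in HT-29 iZEB1 and 4.81%, 4% and 4.8% in SW620. The direction was not kept there: 7 were higher, 1 was lower, and the median was 0.32. Of those 7, 5 had been called lower in DMSO: MT-ATP8, MT-ND2, MT-ND4, MT-ND4L and MT-CO3.

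Cell cycle genes were near level in size. Of 46 members 21 were higher and 17 lower, but 0 were at least 4-fold higher and 1 was at least 4-fold lower (median 0.04). That 1 was CCNE1, cyclin E1 (7.11 ± 0.861 CPM in SW620 and 31.6 ± 0.543 CPM in HT-29 iZEB1). RB1, the retinoblastoma brake, was lower in SW620 (−1.82), as was the CDK inhibitor CDKN1A (−1.78). Cyclin D1, CCND1, stood at 460.0, 465 and 489 CPM in SW620 and 160.0, 154 and 159 CPM in HT-29 iZEB1, and the phosphatase CDC25B was also higher (1.81). The proliferation markers TOP2A (0.03) and MCM2 (−0.06) were not called.

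Of 30 apoptosis regulators 17 were lower in SW620 and 11 higher (median −0.22, or −0.0956 on library totals alone). In RepSox 13 were lower and 13 higher (median 0.01). The BH3-only genes divided: BMF (−4.31) and BBC3, known as PUMA (−3.60), were lower, and BIK (5.65) was higher. BOK, a relative of BAX, was 25.3-fold lower. The death receptor FAS was lower (−2.07) and its ligand FASLG higher, at 8.8 ± 0.471 CPM against 0.0476 ± 0.0437 CPM. Among 25 mismatch repair and colorectal driver genes, 9 were higher and 13 lower, and MGMT and SMAD4 were the 2 that differed at least 4-fold. The mismatch repair gene MLH3 (0.76) was higher, and the ubiquitin ligase RNF43 (−1.26), a brake on WNT receptors, was lower.

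Protein-coding genes were also named by the size of the fitted difference. Against 0 counts that size depends on the fit's prior count, so it gives no exact rank. Genes so named that had 0 counts in HT-29 iZEB1 included GNG4, GAL, ELOVL5, FGD5, BEX3, HDGFL3, STC2, ANTXR1, SLC43A3 and GRIK2. GAL, the neuropeptide galanin, held 184, 188 and 169 CPM in SW620, at least 6320-fold higher. ELOVL5, an elongase of polyunsaturated fatty acids (chr6:53267398-53349179, minus strand), held 147, 149 and 164 CPM, at least 5360-fold higher. Genes so named that had 0 counts in SW620 included UGT1A10, HCAR1, LIPG, ANXA10, CFTR, DAPK1, SLITRK6, IFI44, TMEM30B and NNMT. HCAR1, the lactate receptor (chr12:122726076-122730843, minus strand), held 169, 167 and 171 CPM in HT-29 iZEB1, at least 6580-fold lower in SW620, and NNMT, nicotinamide N-methyltransferase, 67.6, 63.7 and 64.5 CPM.

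In all, 542 tested genes had 0 counts in HT-29 iZEB1 and 208 had 0 counts in SW620. Of those with at least 5 CPM in the other line, 123 were at 0 in HT-29 iZEB1 and 66 in SW620. Of these, 99 and 43 were also at 0 in the RepSox libraries of the same line. A count of 0 over 3 libraries allows up to 3 counts, or 0.026 CPM in SW620 and 0.029 CPM in HT-29 iZEB1, for counting error alone.

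The line difference varied along the genome. By chromosome, the median difference was lowest on chromosomes 15 (−0.45), 18 (−0.41) and 13 (−0.40) and highest on chromosomes 21 (0.51), X (0.45) and 22 (0.43). The RepSox medians were −0.47, −0.39, −0.31, 0.53, 0.47 and 0.40 in the same order. On chromosome 15, 58.2% of 584 tested genes were called lower in SW620 and 25.3% higher. On chromosome 21, 60.3% of 174 were called higher and 24.1% lower.

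Windows of 10 Mb, a division made after the values were seen, showed longer runs of one direction. Of 264 windows with at least 20 tested genes, 37 had a median above 0.5 and 29 below −0.5. The lowest median was −1.9 in chr8:120000001-130000000, where 35 of 41 tested genes were called lower in SW620 and 4 higher. The highest was 1.52 in chr9:60000001-70000000, where 19 of 29 were higher and 6 lower. Among the other windows, chr4:120000001-130000000 had 23 of 23 tested genes called lower in SW620 (median −1.46). In chr19:40000001-50000000, 204 of 261 were lower and 22 higher (median −1.11). In chr16:60000001-70000000, which holds CDH1, 77 of 97 were higher and 14 lower (median 1.20), against the direction of CDH1. In chr17:1-10000000, 162 of 204 were higher and 23 lower (median 1.07). DNA copy number was not measured in these libraries, and its part in these medians was not tested.

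**Figure D4:**
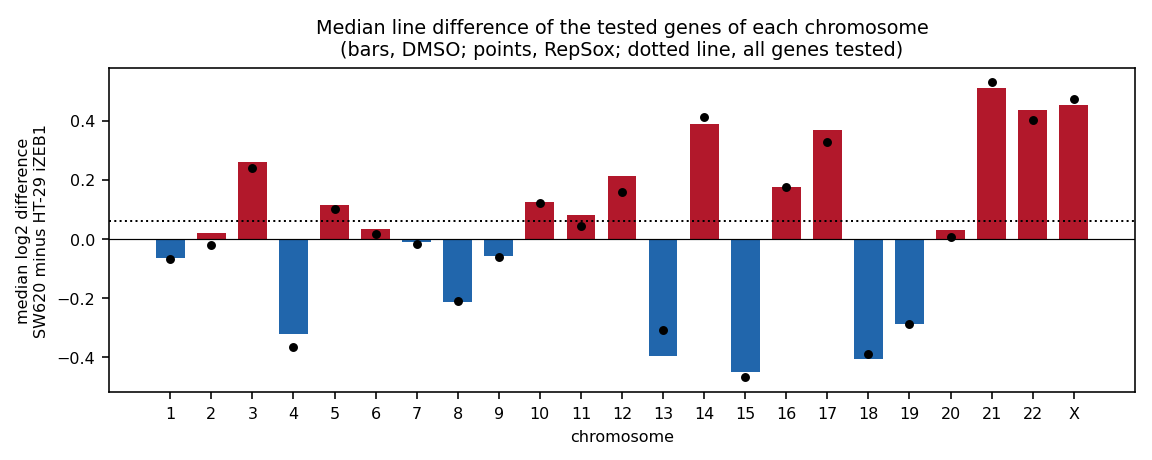
Median log2 difference between SW620 and HT-29 iZEB1 over the tested genes of each chromosome, in DMSO and in RepSox, with the median of all genes as a line. Chromosomes 15, 18 and 13 lie lowest and 21, X and 22 highest in DMSO, and the 2 settings give similar medians.

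Markers of cells that neither line should contain were read in the same way. PTPRC, the defining leukocyte gene, had 2 counts in all in each line, and the 2 leukocyte list members tested, LYZ and CD14 (−3.19), were lower in SW620. DCN and COL1A2, defining fibroblast genes, had 2 and 0 counts in SW620 and 0 and 0 in HT-29 iZEB1. Other fibroblast markers were higher in SW620 (4 of 6 tested, 1 lower), with a summed level of 64.68 to 69.87 CPM there against 2.229 to 3.214 CPM. They included FBLN1 and the proteoglycan LUM (7.71 ± 0.887 CPM in SW620 and 0.419 ± 0.0436 CPM in HT-29 iZEB1). Of the 12 fibroblast markers 6 did not pass the filter. A marker could pass through the line where it is high, so those tested do not stand for the whole list. PDGFRA, FAP and POSTN had 0 counts in both lines, and COL3A1 had 0 counts in SW620 and 12 in HT-29 iZEB1. Of 6 endothelial markers tested 4 were higher in SW620 and 2 lower, with summed levels of 11.53 to 12.92 CPM in SW620 and 62.66 to 70.74 CPM in HT-29 iZEB1. CDH5, the endothelial cadherin, had 1 count in SW620 and 0 in HT-29 iZEB1, while ESAM, an adhesion molecule of endothelium, stood at 59.7 ± 4.24 CPM in HT-29 iZEB1 and 0.361 ± 0.138 CPM in SW620.

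The adhesion genes of the CEACAM family read lower in SW620 for 3 of 4 tested members. CEACAM1 stood at 22.4 ± 0.177 CPM in SW620 and 339 ± 15.9 CPM in HT-29 iZEB1. CEACAM5 (−4.11) and CEACAM6 (−6.95) are close paralogs whose reads may be shared, so their separate levels are uncertain. Of 46 cancer-testis antigen genes 4 passed the filter, and MAGEB2, an X-linked member, had 5.77 ± 0.518 CPM in SW620 and 0 counts in HT-29 iZEB1.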

How the data were processed

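RNA of each library was sequenced as mRNA on a BGI platform, per the labels' protocols. The deposited table holds the authors' raw counts per gene symbol for 18 libraries. The submitters' processing notes name FastQC 0.11.9, HISAT2 2.2.0, featureCounts 2.0.0, DESeq2 1.34.0 and GRCh38.p13; the sources used here give neither annotation release nor strand setting, so overlapping and antisense genes cannot be told apart. From the counts of the 6 DMSO libraries, genes were filtered with filterByExpr (minimum count 10), scaled by TMM and fitted by group with edgeR 4.0.16, the quasi-likelihood test being adjusted by Benjamini-Hochberg over 17631 genes. The 6 RepSox libraries were fitted alone in the same way. Genes at 0 in a line use a floor of 3 counts over its 3 libraries as a bound, and genes with 1 to 3 counts a 95% interval for counting error. Gene positions come from GENCODE 29 and promoters from RefSeq. Counts were simulated for 17631 genes of the DMSO comparison, with means pooled over both lines and 50 genes changed at each fold size. Recovered were 80% of 1.5-fold, 76% of 2-fold and 100% of 4-fold and 8-fold changes, and 5.32% of calls were false. Far fewer genes changed there than were called between the lines, so these shares do not carry over to the line contrast. Replicates differed beyond counting noise (chi-square per degree of freedom 3.93 to 13.3). The genes named are 7 set genes, the 12 largest fitted rises and falls and up to 6 per list; some that the rule names are not reported here. The members and gene lists were chosen with earlier results of these data known. Alternatives changed the scaling, filter, test, samples, block and replicates.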

Additional observations from a re-analysis of the deposited data

Results flagged for a closer look

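In 21 of 737 named or listed genes the difference between the lines was called by edgeR in opposite directions in DMSO and in RepSox. Over all genes tested in both settings the number was 176 of 17097. The change between the settings itself was not tested. Values are given for 19 of the 21 genes. All values here are log2 differences of SW620 over HT-29 iZEB1. HNF4A stood at 0.15 in DMSO and at −0.31 in RepSox. Of the 21 genes, 5 were mitochondrially encoded. MT-ATP8 stood at −0.77 in DMSO and 0.35 in RepSox, MT-ND2 at −0.22 and 0.56, MT-ND4 at −0.18 and 0.73, MT-ND4L at −0.23 and 0.52, and MT-CO3 at −0.26 and 0.32. The WNT antagonist DKK1 stood at −1.45 and 0.79. Lower in SW620 in DMSO and higher in RepSox were also ESRP2 (−0.37 and 0.12), SMAD6 (−0.37 and 0.20), CASP4 (−0.29 and 0.25), P4HA2 (−0.27 and 0.22), HIF1A (−0.20 and 0.29), NFKBIA (−0.18 and 0.18) and TGFBR2 (−0.15 and 0.13). Higher in DMSO and lower in RepSox were CA9 (0.70 and −0.65), SLC16A1 (0.35 and −0.18), HK2 (0.30 and −0.13), PGK1 (0.14 and −0.12) and ADAM15 (0.13 and −0.32). Many of these differences were small, and the DMSO calls of HNF4A, TGFBR2 and HIF1A were lost under at least 1 alternative.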

How the results depend on the processing

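No gene called in the DMSO comparison was called in the opposite direction under any of the 12 alternatives refitted gene by gene. RLE size factors gave 14058 called genes, DESeq2 13666, all 18 libraries 14636 and no filter 15661 of 32314. Library totals alone gave 14131, moved the median of all genes from 0.06 to 0.18 and raised the share of calls that were higher in SW620 from 52.5% to 57.8%, so small differences depend on the scaling. A test against a 2-fold change (glmTreat) called 5940 genes, 3192 higher and 2748 lower, against 14050, 7373 and 6677. Leaving out 1 replicate gave 13757 to 14113. Of 737 named or listed genes, 45 lost their call under at least 1 alternative and 33 gained one. Of these, ETV4, SOX9, TOP2A and ZNRF3, named above as not called, were called under 1 to 3 alternatives. Of 36 list medians, 18 changed sign or moved by over 1.5 times under at least 1 alternative. Without a filter, that of intestinal identity factors went from −0.294 to −1.1 and that of fibroblast markers from 5.35 to 3.39. The medians of 4 lists changed sign: matrix proteases without a filter (−0.467), MHC class II without a filter (0.711), ABC transporters on library totals (0.00503) or without a filter (0.163), and HOX clusters under 4 alternatives (0.0187 to 0.118).

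The labels number the replicates in both lines but do not tie them together. Same-numbered libraries correlated at 0.0402, 0.0945 and 0.246 in their deviations. SW620 replicate 1 correlated best with HT-29 iZEB1 replicate 2 (0.126), while SW620 replicates 2 and 3 correlated best with the same number. On the second principal component (0.688% of the variance) replicate 3 stood at −11.1 in HT-29 iZEB1 and −10.3 in SW620. All other libraries were positive on it. Because the labels tie no numbers together, the main fit used no pairs. With a replicate block 14220 genes were called, and 13888 of the 14050 kept their call and direction. With 3 libraries per line and most genes unchanged, simulated differences of 1.5-fold or 2-fold were recovered less often than 4-fold ones. The shares were 80%, 76% and 100% of 50 genes each.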
